A study of Mus musculus with 8 samples.

Results

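Colony-stimulating factors are the cytokines that keep macrophages and granulocytes alive and make them multiply. The genes described here are the receptor Csf1r with its ligands Csf1 and Il34, the receptor chains Csf2ra, Csf2rb and Csf2rb2, and the receptor Csf3r. They are 7 of the 46983 genes in the deposited table, chosen by name, and each had a single row there. RNA was sequenced from corpus callosum microglia, that is, the tissue macrophages of a large white matter tract of the brain. The 8 libraries were 4 named Qk-KO and 4 named WT, on an FvB/C57BL6 hybrid background. By the labels, Qk-KO mice were Cx3cr1-CreER;QKLoxP/LoxP and WT mice Cx3cr1-CreER;QKLoxP/+, so that mice of both groups carried a tamoxifen-inducible Cre recombinase driven from Cx3cr1 and at least 1 loxP-flanked allele of Qk. All received tamoxifen at 8 weeks of age and then 0.2% cuprizone, a copper chelator that strips myelin, in the food for 6 weeks. Cx3cr1 is also active in other macrophages and in monocytes, and WT here does not mean an intact pair of Qk alleles. The study asked what loss of Qk, which encodes the RNA-binding protein quaking, changes in microglia during demyelination.

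In the brain Csf1r is the receptor tyrosine kinase on which microglia depend for survival, and it has a pair of ligands that are unrelated in sequence, Csf1, made by glia, and Il34, made mostly by neurons. Csf2ra encodes the chain that binds granulocyte-macrophage colony-stimulating factor. It signals together with a beta chain, and mice have a pair of beta chain genes: Csf2rb, shared by several cytokines, and Csf2rb2, which serves interleukin-3 alone. Csf3r encodes the receptor for granulocyte colony-stimulating factor, best known in neutrophils.

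The genotype field of the labels contradicts the sample name for 4 of the 8 libraries. By that field named Qk-KO 1 and 3 are WT and named WT 2 and 3 are Qk-KO. Libraries are called by their names below, and no difference is assigned to a genotype. Qk itself had regularized log2 values of 15.59, 15.40, 15.69 and 15.29 in named Qk-KO 1 to 4, against 15.50, 15.38, 15.41 and 15.37 in named WT 1 to 4. Libraries whose field says Qk-KO (named Qk-KO 2 and 4, named WT 2 and 3) had 15.40, 15.29, 15.38 and 15.41. Those whose field says WT (named Qk-KO 1 and 3, named WT 1 and 4) had 15.59, 15.69, 15.50 and 15.37. The groups overlapped by name and by field, and the value sums all exons, so it checks the labels little. Rough totals were 43.9M to 58.5M reads in named Qk-KO and 59.7M to 69.7M reads in named WT libraries, with no overlap. All 10 microglial markers had reads, and their summed level was 8912 to 10506 CPM (counts scaled to equal library totals) in named Qk-KO and 10788 to 12298 CPM in named WT. The 8 astrocyte markers, none of them at 0, summed to a level that ranged from 85.5 to 502 CPM in named Qk-KO and from 207 to 543 CPM in named WT, and were highest in number 4 of each group. The labels do not say whether each library came from its own animal, so every p-value measures only the spread between these libraries. In a bulk sample, fewer cells of a type and less RNA per cell cannot be told apart.

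The genes for the beta chains Csf2rb and Csf2rb2 lie next to each other on chromosome 15 and are near-copies, which bears on how far their values can be read apart. Csf2rb spans 78325752 to 78353847 on the plus strand and Csf2rb2 78282507 to 78305721 on the minus strand (GRCm38, GENCODE vM21). Over 2626 aligned coding bases, 2504 were identical, or 95.4%. The longest identical run was 242 bases, and 26.0% of the 50-base windows and 15.8% of the 75-base windows of the Csf2rb coding sequence also occurred in Csf2rb2. The read length and the treatment of reads with more than 1 match are not given in the sources used here, so part of the reads of this pair may have been split between the copies. The first pair of coding stretches below lies inside the longest identical run (chr15:78348577-78348696 for Csf2rb and chr15:78284752-78284871 for Csf2rb2), where no read of this length tells the genes apart. The second pair is the 120-base window with the most mismatches, 22, shown in capitals (an exon junction falls within it, so it spans chr15:78338898-78340471 and chr15:78292838-78294433), where the genes can be told apart. All are written 5′ to 3′ on the coding strand.
Csf2rb, identical stretch: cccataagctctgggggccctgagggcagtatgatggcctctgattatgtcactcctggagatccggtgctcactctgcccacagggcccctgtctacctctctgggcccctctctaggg
Csf2rb2, identical stretch: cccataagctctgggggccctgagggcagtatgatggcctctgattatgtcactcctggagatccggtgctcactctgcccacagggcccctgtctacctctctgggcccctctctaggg
Csf2rb, most different stretch: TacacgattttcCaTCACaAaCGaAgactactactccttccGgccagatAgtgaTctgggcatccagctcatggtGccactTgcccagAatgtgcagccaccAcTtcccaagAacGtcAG
Csf2rb2, most different stretch: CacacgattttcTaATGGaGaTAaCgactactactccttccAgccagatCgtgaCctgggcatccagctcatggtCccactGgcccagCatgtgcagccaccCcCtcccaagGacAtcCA

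Promoters of Csf1 and Csf2rb2 are shown because the levels of this pair moved together over the libraries, as given further on. They run from 250 bases before to 50 bases after the start in RefSeq's GRCm38.p6, which held a promoter for 4 of the 7 genes (Csf1, Csf2ra, Csf2rb2 and Csf3r). Both strands were searched for a kappa B site bound by NF-kappa B, whose letters stand in capitals in the Csf1 promoter printed here, for GAGGAA, the core bound by the myeloid factor PU.1, and for TGAGTCA, the site of AP-1. Of 32544 promoters, 0.157% held the first, 28.1% the second and 5.19% the third. The Csf1 promoter held 1 kappa B site and no match to the other motifs. Csf2rb2 and Csf2ra held 2 PU.1 cores each and Csf3r held 1, and none of these 3 held a kappa B or AP-1 match. Matches are in capitals; a match is a description of letters and not evidence of binding.
Csf1 (chr3:107760420-107760719, minus strand): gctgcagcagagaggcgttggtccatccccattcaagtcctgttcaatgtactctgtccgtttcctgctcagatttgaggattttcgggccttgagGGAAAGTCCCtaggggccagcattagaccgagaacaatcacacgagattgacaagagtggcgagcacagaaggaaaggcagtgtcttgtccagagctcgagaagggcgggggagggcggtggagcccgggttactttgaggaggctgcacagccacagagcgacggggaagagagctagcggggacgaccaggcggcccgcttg
Csf2rb2 (chr15:78305672-78305971, minus strand): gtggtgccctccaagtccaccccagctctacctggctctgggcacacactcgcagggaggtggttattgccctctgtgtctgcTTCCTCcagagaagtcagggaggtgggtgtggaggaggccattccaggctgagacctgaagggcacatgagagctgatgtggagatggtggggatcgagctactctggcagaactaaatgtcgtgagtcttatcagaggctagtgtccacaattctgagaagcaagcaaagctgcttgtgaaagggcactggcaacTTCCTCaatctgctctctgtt

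The receptors were transcribed at very different levels, with Csf1r far above the rest and Il34 near the limit of detection. Levels are compared between genes as CPM per kb of the longest protein-coding transcript. Csf1r stood at 1131 ± 73.1 CPM per kb in named Qk-KO and 1369 ± 33.3 in named WT libraries (SD, n = 4 each), and its reads made up 0.588% of all signal. Csf3r followed at 188 ± 27.4 and 182 ± 6.33 CPM per kb in named Qk-KO and named WT, then Csf1 at 140 ± 32.4 and 136 ± 13, and Csf2ra at 131 ± 20.7 and 124 ± 10.6. Over all 8 libraries these 3 genes ran from 150 to 213, from 104 to 180 and from 103 to 147 CPM per kb, so that neighbours in this order overlapped. Csf2rb was lower, at 37.5 ± 8.40 CPM per kb in named Qk-KO and 37.5 ± 1.61 in named WT, and Csf2rb2 lower again at 8.05 ± 4.49 and 8.52 ± 0.821, with no overlap between the beta chains in level. Il34 stood at 0.125 ± 0.109 and 0.126 ± 0.0418 CPM per kb, which is 4.22 to 24.0 reads in a library by a rough estimate. With all exons of a gene joined as its length, the order was the same, but Csf3r (145 to 206 CPM per kb) then lay above Csf1 (82.6 to 143) in every library and Csf1 and Csf2ra (66.1 to 94.8) still overlapped.

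**Figure D1:**
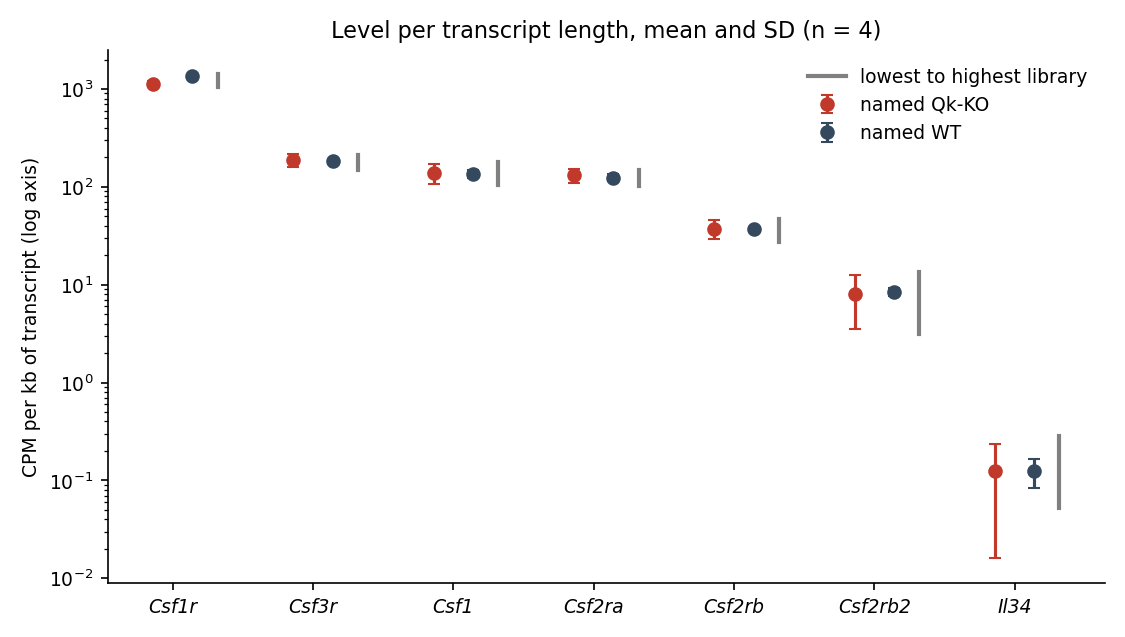
Level of each gene in CPM per kb of its longest protein-coding transcript, on a log axis, as the mean and SD of 4 libraries named Qk-KO (red) and 4 named WT (dark), with the range over all 8 libraries in grey. Csf1r stands highest, at 1131 CPM per kb in named Qk-KO and 1369 in named WT, and Il34 lowest, at 0.125 and 0.126.

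Csf1r was lower in every named Qk-KO library than in any named WT library. On the regularized log2 scale it stood at 18.31, 18.23, 18.10 and 18.17 in named Qk-KO 1 to 4, against 18.46, 18.44, 18.49 and 18.52 in named WT 1 to 4. The groups did not overlap, and the named WT libraries lay close together (SD 0.04, against 0.09 in named Qk-KO). The difference was -0.28 ± 0.06 (SE; 95% interval -0.40 to -0.15), a ratio of 0.825 with an interval of 0.755 to 0.901. In the authors' deposited table Csf1r had a log2 fold change of -0.28 with an SE of 0.06 and an adjusted p of 0.00327, and it was the 1 gene called of the 6 for which that table gives an adjusted p. Over all genes that table called 1.22%, and 0.671% in the lower direction. The limma fit on the regularized values did not call it (adjusted p = 0.315, unadjusted p = 0.000729, which ranked 52 among 22546 genes). Limma called 0 of the 7 genes, against 0.00444% of all genes tested. At an unadjusted p under 0.05 it held 1 of the 7, Csf1r, against 8.26% of all genes tested in either direction and 4.50% in the lower one. A two-sided exact permutation test over the 70 assignments of the libraries gave p = 0.0286, the smallest it can give. Of all genes tested, 5.73% had no overlap between the named groups and 2.70% had none with named Qk-KO lower.

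The Csf1r difference was of like size within each value of the genotype field. Among libraries whose field says Qk-KO it was -0.27, with means of 18.20 in named Qk-KO and 18.47 in named WT. Among those whose field says WT it was -0.29, with means of 18.20 in named Qk-KO and 18.49 in named WT. Grouped by the genotype field in place of the name, the difference was -0.02 (limma adjusted p = 0.9995). Leaving out any 1 library gave differences of -0.32 to -0.24 by name. The summed microglial markers and the library totals, given above, were also lower in named Qk-KO without overlap. For the marker sums this holds on a scale where library totals were not made equal, and equal totals were not tested. Of the 10 markers, 4 were lower in every named Qk-KO library than in any named WT library (P2ry12, Sall1, Cx3cr1 and Gpr34), with differences of -1.74, -0.38, -0.68 and -0.50. Of 8 markers of border macrophages, none of them at 0, 6 had negative differences, and their summed level was 120 to 182 CPM in named Qk-KO and 112 to 186 CPM in named WT. Ms4a7, of that list and named after its values were seen, was higher in every named Qk-KO library (difference 0.79, limma adjusted p = 0.118; log2 fold change 0.82, adjusted p = 2.72e-08 in the authors' deposited table). The part of these markers in the Csf1r difference was not tested. The gene lies on chromosome 18 from 61100598 to 61132149, and 873 bases of its exons overlap Hmgxb3 on the opposite strand (55.7 CPM on average, against 5878 CPM for Csf1r). Strand use in counting was not given in the sources used here.

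**Figure D2:**
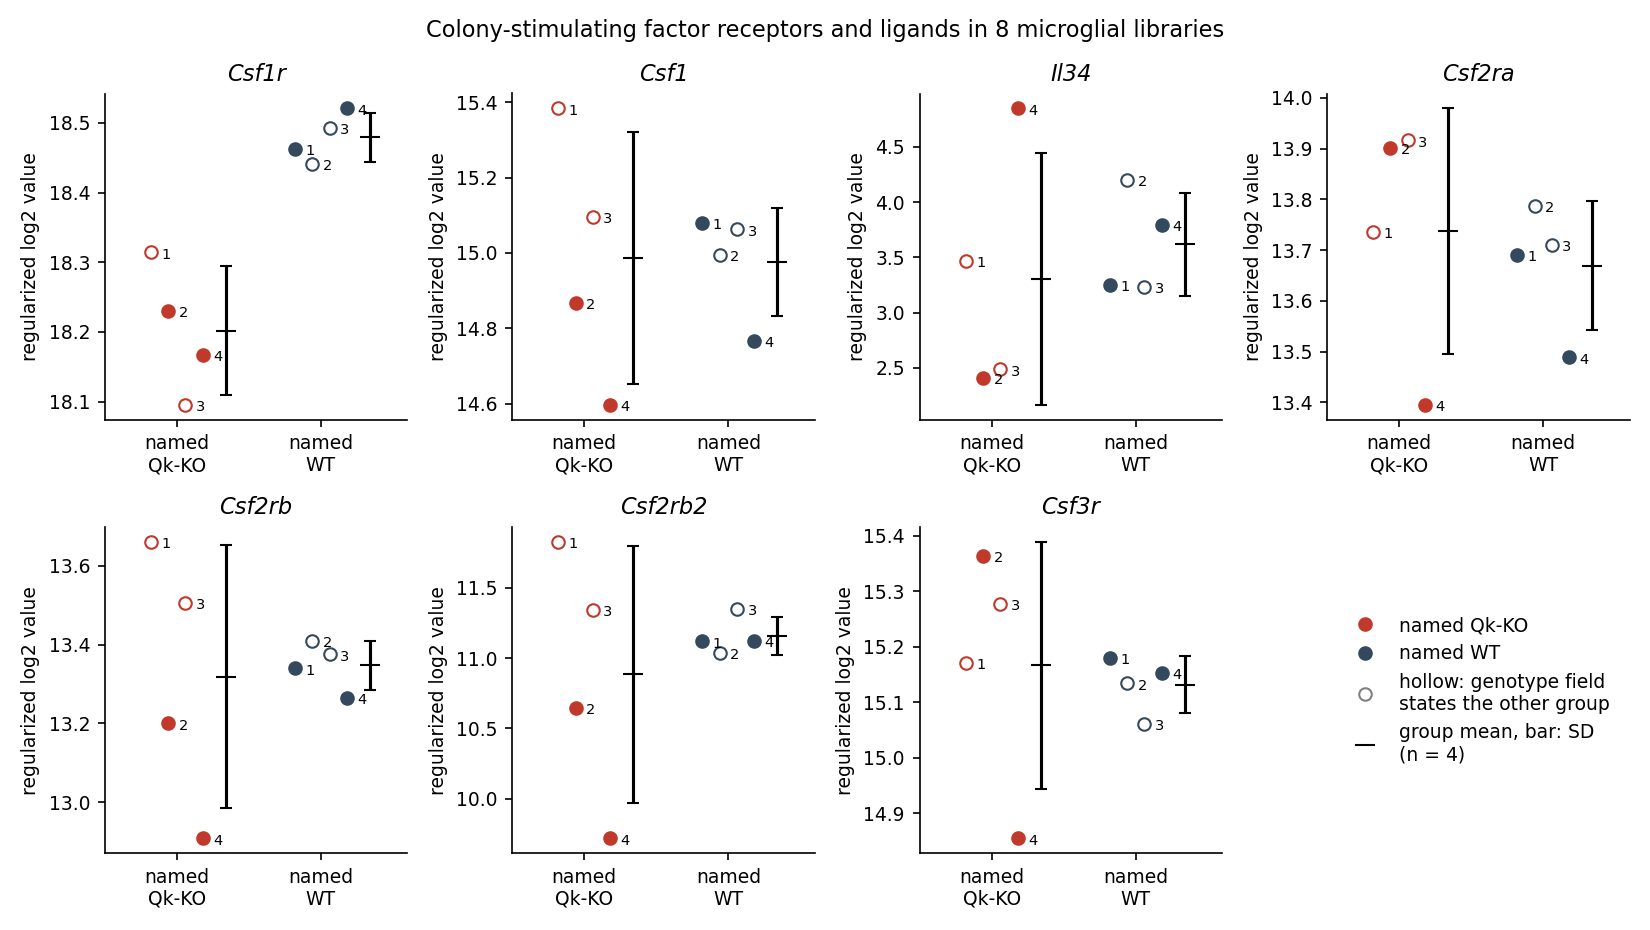
Regularized log2 values of the 7 genes in each library, named Qk-KO (red) left of named WT (dark), with the library number beside each point and the group mean and SD (n = 4) as bars; hollow points are libraries whose genotype field states the other group. The points of Csf1r separate, at 18.10 to 18.31 in named Qk-KO and 18.44 to 18.52 in named WT, while those of the other 6 genes overlap.

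The ligand Csf1 was abundant in these libraries and varied more among named Qk-KO than among named WT libraries. Its values were 15.38, 14.87, 15.10 and 14.60 in named Qk-KO 1 to 4, against 15.08, 14.99, 15.06 and 14.77 in named WT 1 to 4. Named Qk-KO 1 was the highest and named Qk-KO 4 the lowest of all 8, so the named WT libraries fell inside the span of named Qk-KO. The groups differed by 0.0097 ± 0.15 (SE; 95% interval -0.34 to 0.36; limma adjusted p = 0.991; exact permutation p = 0.943, n = 4 each), and its sign changed when libraries were centred or quantile normalized. The log2 ratio of Csf1r to Csf1 averaged 3.22 ± 0.30 in named Qk-KO and 3.50 ± 0.17 in named WT (SD, n = 4 each), and the groups overlapped. Of 8 monocyte markers, none of them at 0, Nr4a1, which many cell types induce on stimulation, made up most of the sum with 413 CPM on average. The other 7 summed to 21.9, 29.6, 29.8 and 14.3 CPM in named Qk-KO 1 to 4, against 28.9, 56.6, 23.3 and 13.6 CPM in named WT 1 to 4, and 6 of the 8 had negative differences. Csf1 was lowest in number 4 of each group, where the sum of these 7 was also lowest and the summed astrocyte markers were highest, at 502 CPM in named Qk-KO 4 and 543 CPM in named WT 4. The part of either in the Csf1 values was not tested.

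The other ligand of Csf1r, Il34, gave too few reads for a comparison. Its regularized log2 values, by library, were 3.47, 2.41, 2.48 and 4.85 in named Qk-KO 1 to 4, against 3.25, 4.20, 3.23 and 3.80 in named WT 1 to 4. The highest and the lowest library were both named Qk-KO, and the groups overlapped. The difference was -0.32 ± 0.52 (SE; 95% interval -1.51 to 0.87; limma adjusted p = 0.889). The authors' deposited table gives it 0.07 with an SE of 0.53 and no adjusted p. Without named Qk-KO 4 the difference was -0.83 (limma adjusted p = 0.248). The 8 neuronal markers, none of them at 0, which summed to only 3.77 to 10.4 CPM in named Qk-KO and 5.84 to 10.7 CPM in named WT, were highest in number 4 of each group, and their part was not tested.

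Csf2ra, the binding chain for granulocyte-macrophage colony-stimulating factor (chromosome 19, 61223957 to 61228429), did not separate the groups. Its values were 13.74, 13.90, 13.92 and 13.40 in named Qk-KO 1 to 4, against 13.69, 13.79, 13.71 and 13.49 in named WT 1 to 4. As with Csf1, number 4 of each group was the lowest. The difference was 0.07 ± 0.12 (SE; 95% interval -0.19 to 0.33; limma adjusted p = 0.893). Without named Qk-KO 4 it was 0.18 (limma unadjusted p = 0.0467, adjusted p = 0.296). The ligand gene Csf2 and the related cytokine genes Il3 and Il5 are listed at 0 in the deposited table.

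The beta chain genes did not separate the groups, and Csf2rb2 spread more over the named Qk-KO libraries than any other of the 6 abundant genes. Csf2rb, the shared chain, had values of 13.66, 13.20, 13.51 and 12.91 in named Qk-KO 1 to 4, against 13.34, 13.41, 13.38 and 13.26 in named WT 1 to 4. Csf2rb2, the interleukin-3 chain, had 11.83, 10.65, 11.34 and 9.72 in named Qk-KO 1 to 4, against 11.12, 11.04, 11.35 and 11.12 in named WT 1 to 4. For both genes named Qk-KO 1 was the highest and named Qk-KO 4 the lowest of the 8 libraries, and the groups overlapped. The difference was -0.03 ± 0.14 (SE; 95% interval -0.35 to 0.30; limma adjusted p = 0.969) for Csf2rb and -0.27 ± 0.42 (SE; 95% interval -1.25 to 0.70; limma adjusted p = 0.876) for Csf2rb2. Without named Qk-KO 4 the Csf2rb2 difference was 0.11. In the authors' deposited table Csf2rb2 had -0.07 with an SE of 0.38, and the log2 ratio of the group means taken on the linear scale was -0.08, since the mean of logs weighs the low library more. As a ratio of named Qk-KO to named WT, the 95% interval of Csf2rb2 ran from 0.422 to 1.62.

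The share of the joint beta chain signal that came from Csf2rb2 also moved. It was 21.9%, 14.6%, 18.2% and 9.89% in named Qk-KO 1 to 4, against 17.7%, 16.2%, 19.7% and 18.5% in named WT 1 to 4. The groups overlapped, with means of 16.1 ± 5.13% in named Qk-KO and 18 ± 1.49% in named WT (SD, n = 4 each). The copies therefore did not vary in strict proportion. How far shared reads entered their values was not tested.

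Csf3r (chromosome 4, 126024550 to 126044440) was the second most abundant of the 7 per length and did not separate the groups. Its values were 15.17, 15.36, 15.28 and 14.85 in named Qk-KO 1 to 4, against 15.18, 15.13, 15.06 and 15.15 in named WT 1 to 4. Both ends of the range were named Qk-KO libraries. The difference was 0.03 ± 0.10 (SE; 95% interval -0.19 to 0.26; limma adjusted p = 0.938), a sign that turned under quantile normalization, and without named Qk-KO 4 it was 0.14 (limma unadjusted p = 0.0458, adjusted p = 0.293). All 10 neutrophil markers had reads, and their summed level was 24.8 to 71.9 CPM in named Qk-KO and 10.5 to 336 CPM in named WT. Named WT 2, with 336 CPM of these markers, had a Csf3r value of 15.13, and named WT 4, with 10.5 CPM, had 15.15. Within named Qk-KO, number 2 had the highest sum and the highest Csf3r value, at 71.9 CPM and 15.36. Number 4 of that group had the lowest of both, at 24.8 CPM and 14.85. Numbers 1 and 3 of that group went the other way, with sums of 46.5 and 36.3 CPM and Csf3r values of 15.17 and 15.28. The part of these markers in the Csf3r values was not tested. The ligand gene Csf3 stood at 0.0297 CPM.

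**Figure D3:**
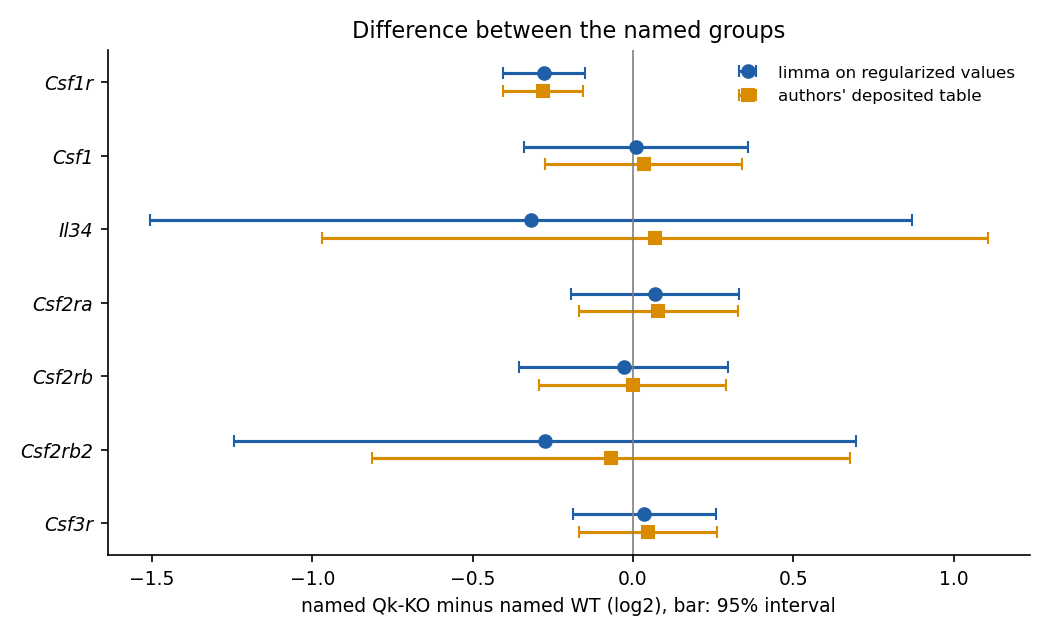
Difference between named Qk-KO and named WT in log2 units for each gene, with 95% intervals, from limma on the regularized values (blue circles) and from the authors' deposited table (orange squares, interval from its SE). The intervals of Csf1r lie below 0 (-0.40 to -0.15 in limma), and those of the other 6 genes include 0.

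All 7 genes had a larger SD in named Qk-KO than in named WT libraries. So had 72.5% of the 13463 genes of at least 1 CPM, whose median ratio of SDs was 1.46. The ratio was 6.80 for Csf2rb2, 5.36 for Csf2rb and 4.38 for Csf3r, and between 1.90 and 2.65 for the other 4. A ratio as large as that of Csf2rb2 was found in 1.63% of genes. Of the 6 genes above 1 CPM, 5 were lowest in named Qk-KO 4 (all but Csf1r), where 18.9% of all genes of at least 1 CPM had their lowest value.

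Csf1, Csf2rb and Csf2rb2 rose and sank together over the 8 libraries, and Csf1r did not follow them. Over the 15 pairs of the 6 abundant genes, the highest Pearson r was 0.96 for Csf2rb with Csf2rb2 (exact permutation p = 0.000694, adjusted 0.0104; Spearman rho = 0.79, p = 0.0279, adjusted 0.184; n = 8). Csf1 with Csf2rb gave r = 0.94 (exact permutation p = 0.00166, adjusted 0.0125; rho = 0.88, p = 0.00724, adjusted 0.109), and Csf1 with Csf2rb2 gave r = 0.88 (exact permutation p = 0.00508, adjusted 0.0254; rho = 0.76, p = 0.0368, adjusted 0.184). Without the outermost libraries, named Qk-KO 1 and 4, these were 0.76, 0.77 and 0.56, so much of the relation rests on them. Csf2ra with Csf3r gave r = 0.82 (exact permutation p = 0.0111, adjusted 0.0415; rho = 0.67, p = 0.0831, adjusted 0.312) and still 0.82 without named Qk-KO 4 and named WT 4. With deviations taken from the group means, the same 4 pairs gave 0.97, 0.94, 0.91 and 0.82. The 5 pairs with Csf1r had r between -0.25 and 0.35. Adjustment covered these 15 pairs only. Among genes of at least 1 CPM, an r of at least 0.9 was reached by 1.91% with Csf1, 1.76% with Csf2rb and 1.17% with Csf2rb2. Csf2rb and Csf2rb2 are near-copies, and the part of shared reads in their r was not tested.

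By genotype field the libraries split these genes in opposite ways. Among libraries whose field says Qk-KO, the difference between named Qk-KO and named WT was -0.30 for Csf1, -0.34 for Csf2rb and -1.01 for Csf2rb2. Among those whose field says WT, it was 0.32, 0.28 and 0.46. In each case the 2 libraries of one name lay wholly on one side of the 2 of the other name. The interaction of name and field was -0.61 ± 0.20, -0.62 ± 0.15 and -1.47 ± 0.44 (SE; limma adjusted p = 0.378, 0.297 and 0.366), so none was called, and for Csf1r it was 0.02 ± 0.12 (limma adjusted p = 0.963). Opposite separation of this kind was seen in 8.999% of all genes tested.

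**Figure D4:**
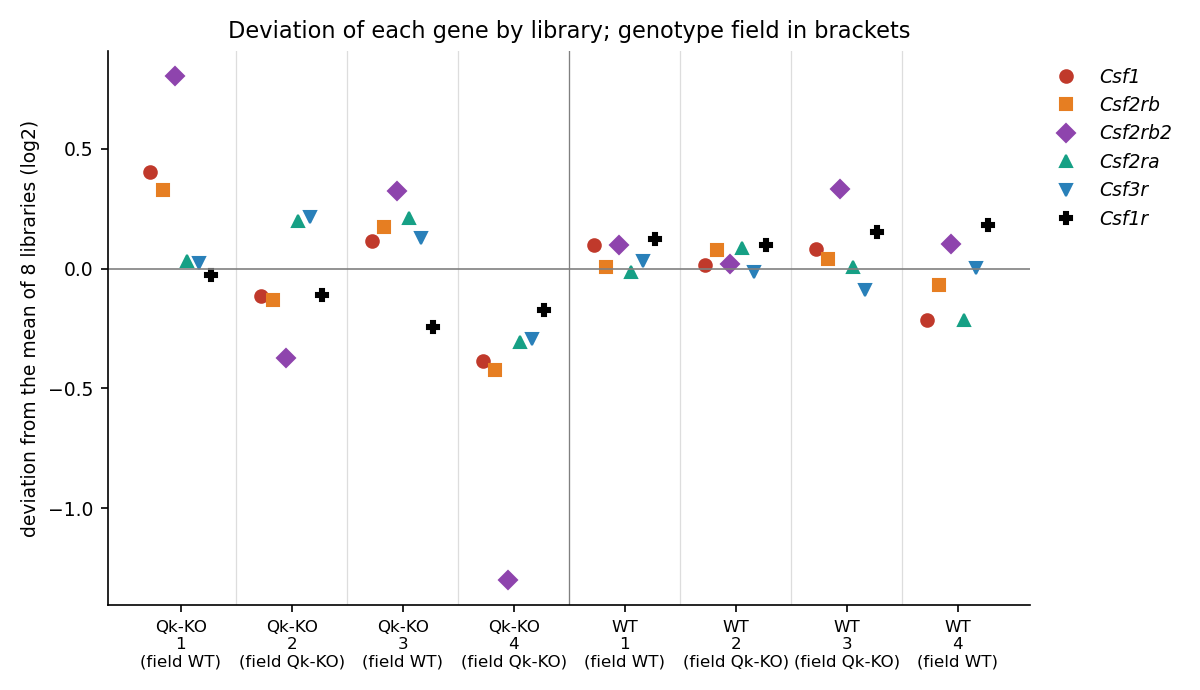
Deviation of 6 genes from their own mean over the 8 libraries, in log2 units, for each library, with its genotype field in brackets. Csf1, Csf2rb and Csf2rb2 are high in named Qk-KO 1 and low in named Qk-KO 4, and Csf1r is below 0 in the 4 named Qk-KO and above 0 in the 4 named WT libraries.

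Genes whose values followed each receptor or ligand most closely over the 8 libraries are named by Pearson r among genes of at least 1 CPM, as a description. For Csf1r these were Dagla, which encodes a lipase that makes an endocannabinoid, at 0.99, Tex261 at 0.99 and Gm2a, a lysosomal cofactor of ganglioside breakdown, at 0.98. For Csf1 they were Efhd2, Spata2 and Bcl3, a partner of NF-kappa B proteins, at 0.99, 0.98 and 0.98. For Csf2ra they were Fam193b at 0.995, Ciart at 0.98 and Nlrc3 at 0.98. For Csf2rb they were Zfp275, BC005537 and the ion channel gene Piezo1 at 0.98 each, and for Csf2rb2 Trak1, Tanc2 and the nuclear receptor gene Ppard at 0.99, 0.99 and 0.98. Csf3r had Gm10655 and Mrpl54 at 0.97 and Dqx1 at 0.97. An r of at least 0.9 was reached by between 0.164% (Csf3r) and 1.91% (Csf1) of the 13455 gene symbols.

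Genes that act around these receptors showed no call in either direction. Of 68 genes listed by role, 64 were tested, and their differences had a median of -0.0094, against -0.0044 over all genes tested. Limma called 0 of the 64 and held 3 at an unadjusted p under 0.05, a share below the 8.26% of all genes tested. The authors' deposited table called 0 of the 60 for which it gives an adjusted p, with 5 at an unadjusted p under 0.05, where it has 6.49% of all genes. Groups did not overlap for 4 of the 64, 3 higher and 1 lower in named Qk-KO, near the share of 5.73% over all genes tested (2.70% lower).

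Among related cytokines, 3 of the 6 listed had reads in enough libraries to be tested. Kitl, the ligand of the receptor Kit, was furthest down at -0.19 ± 0.17 (SE; limma adjusted p = 0.775). Of 9 related receptors tested, Ptprz1, a phosphatase that also binds Il34 and is made by astrocytes and precursor cells, was furthest down at -1.03 ± 0.76 (SE; limma adjusted p = 0.729). Kit was furthest up at 0.10 ± 0.24 (SE; limma adjusted p = 0.928) and stood at only 0.211 CPM. Il3ra, the binding chain of the interleukin-3 receptor and named after its values were seen, was at 41.3 CPM with a difference of -0.06 (limma adjusted p = 0.894).

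Signalling components beneath the receptors differed little. Of 21 tested, 14 had positive and 7 negative differences, with a median of 0.05. Stat3, a transcription factor activated by cytokine receptors, was furthest up at 0.15 ± 0.18 and Fgr, a Src-family kinase, furthest down at -0.26 ± 0.14 (SE; limma adjusted p = 0.849 and 0.662). Mapk3, a kinase of the ERK cascade and named after its values were seen, had 12.84 ± 0.11 in named Qk-KO and 12.99 ± 0.04 in named WT (SD, n = 4 each), with no overlap and a limma adjusted p of 0.568. Plcg2, a phospholipase, and Stat5b, a transcription factor activated by these receptors, both named after their values were seen, had values in named Qk-KO all above those in named WT, with differences of 0.09 and 0.07 (limma adjusted p = 0.652 and 0.687). Among 12 negative regulators the median was -0.01. Cish, a feedback inhibitor of Stat5 signalling, was at 0.12 ± 0.23, and Spry2, an inhibitor of receptor tyrosine kinase signalling at only 1.16 CPM, at -0.72 ± 0.39 (SE; limma adjusted p = 0.908 and 0.662).

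The 10 transcription factors had a median of -0.03. Ets2 was furthest up, with 12.93 ± 0.66 in named Qk-KO and 12.19 ± 0.45 in named WT (SD, n = 4 each; limma adjusted p = 0.645). Its values of 13.55, 12.65, 13.37 and 12.13 in named Qk-KO 1 to 4, against 12.32, 12.47, 12.44 and 11.52 in named WT 1 to 4, were lowest in number 4 of each group, as for Csf1. Cebpa, a factor of myeloid differentiation, was furthest down at -0.71 ± 1.08 (SE; limma adjusted p = 0.879). It split the libraries into low values of 11.35, 12.07 and 11.58 (named Qk-KO 1, named Qk-KO 4 and named WT 3) and values of 14.57 to 14.83 in the other 5. Spi1, which encodes PU.1 and was named after its values were seen, had 13.14 ± 0.12 in named Qk-KO and 13.17 ± 0.05 in named WT (SD, n = 4 each; limma adjusted p = 0.917).

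Of 9 survival and proliferation genes, 7 had positive differences, with a median of 0.19. Mki67, a marker of dividing cells, was furthest up at 0.32 ± 0.23 and Ccnd2, a cyclin, furthest down at -0.32 ± 0.23 (SE; limma adjusted p = 0.720 and 0.725). Ccnd1, a cyclin induced by growth factor receptors and named after its values were seen, had 12.13, 12.05, 12.09 and 12.31 in named Qk-KO 1 to 4, against 11.90, 11.85, 11.76 and 11.99 in named WT 1 to 4. Its groups did not overlap, but it was not called (limma adjusted p = 0.431; adjusted p = 0.0831 in the authors' deposited table).

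**Figure D5:**
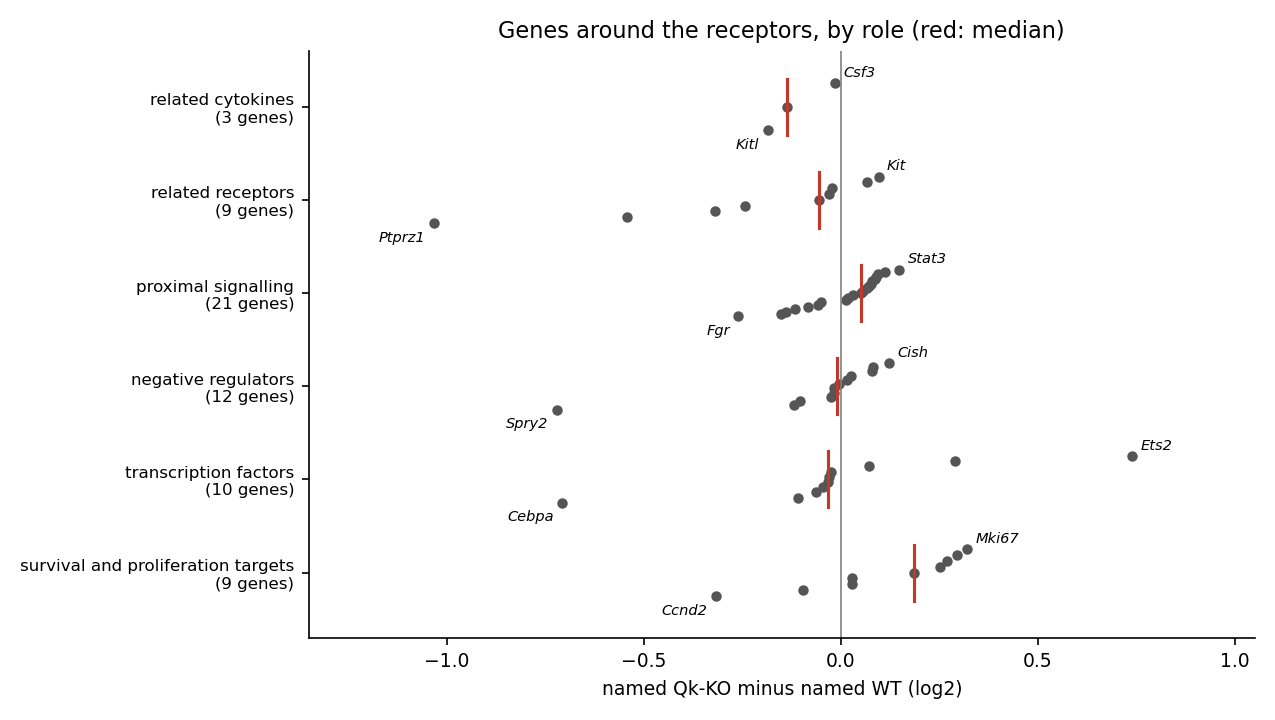
Difference between named Qk-KO and named WT in log2 units for 64 tested genes around the receptors, 1 point a gene, in 6 groups by role, with the median of each group in red and the outermost genes named. Most points lie near 0, and the medians run from -0.14 for related cytokines to 0.19 for survival and proliferation genes.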

How the data were processed

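RNA-seq values of 8 libraries were read from 1 deposited table. Per the submitters' processing notes the build was mm10 and the tools were HISAT2, StringTie, DESeq2 and FastQC, with no versions or roles given. Each library has 1 deposited column of log2 values that behave as regularized logarithms, shrunken at low counts. The authors' mean normalized signal (baseMean, per the file headers) was divided by 56.8, the signal worth 1 CPM. For CPM by library, the regularized log2 values were taken to the linear scale and divided by the same 56.8. Such values carry the same shrinkage, and library totals were not made equal. The deposited table also holds the authors' log2 fold change, its SE, a test score, p-values and adjusted p-values. The direction of that fold change is not stated. It followed named Qk-KO minus named WT (r = 0.9997 across the 5232 genes with an SE under 0.1).

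No counts per library were present, so no count test was run, and limma 3.58.1 in R 4.3.3 with trend and robust empirical Bayes was fitted to the deposited log2 values without a pseudocount, on all 22546 genes whose normalized value reached 1 in 4 libraries or more, with Benjamini-Hochberg adjustment and a threshold of 0.05. All 7 genes passed this filter. The fit was tested on simulated data. Relative depth came from genes with reads in 1 library, whose signal was a whole multiple of 1 read within 1%. Of these, 55.0% to 68.5% per library were even multiples, so counting error may be larger than read numbers imply. The 2 most alike libraries (named WT 1 and 4) still differed by an SD of 0.24 on the log2 scale, taken over abundant genes only. Gene positions and lengths are from GENCODE vM21, where 3 of the 7 identifiers had the same version.

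The 7 genes, the lists and the rules for naming genes were chosen with earlier results of these data known. Named from the lists of genes by role were all genes called by limma or in the authors' table (there were none) and the largest positive and negative difference in each list, and, for likeness, the 3 genes with the highest r. Alternatives were the genotype field, a replicate block, filters, centring, quantile normalization, plain empirical Bayes and leaving out each library. Chosen after seeing the data were the genotype field as covariate, within-field values, the interaction and joined exon lengths.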

Additional observations from a re-analysis of the deposited data

Results flagged for a closer look

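Csf1, Csf2rb and Csf2rb2 are listed because their difference between named Qk-KO and named WT had opposite signs in the 2 values of the genotype field, with every library on the side of its group. Of all genes tested, 8.999% did the same. These 3 genes also rose and sank together over the libraries, so they are not separate observations. The difference among libraries whose field says Qk-KO, less that among libraries whose field says WT, was -0.61 for Csf1, -0.62 for Csf2rb and -1.47 for Csf2rb2 on the log2 scale. The interaction was tested with limma across all genes, and none of the 3 was called (adjusted p = 0.378, 0.297 and 0.366; unadjusted p = 0.0175, 0.00349 and 0.0151). It called 5 of 22546 genes, and 11.2% had an unadjusted p under 0.05. No library stood apart from the other 3 of its named group by Dixon's test in any of the 14 groups of 4 that were checked.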

How the results depend on the processing

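Limma called 1 of 22546 genes and none of the 7. None of the 111 alternative fits of the 7 genes called one (smallest adjusted p = 0.105). Csf1r stayed negative in all 16 of its fits, at -0.32 to -0.24 when 1 library was left out (adjusted p = 0.105 to 0.793, unadjusted p = 0.000273 to 0.00310) and -0.02 by genotype field. By genotype field 0 genes were called (602 at an unadjusted p under 0.05), Csf1 was -0.20, Il34 0.42, Csf2ra -0.0095, Csf3r -0.092, Csf2rb -0.22 and Csf2rb2 -0.66 (limma adjusted p = 0.9995 for both beta chain genes, unadjusted 0.110 and 0.0887). With genes of at least 1 CPM 0 were called (1392 at an unadjusted p under 0.05), with fewer genes tested and without Il34. Centring gave Csf1 -0.0050, and quantile normalization gave Csf1 -0.057 and Csf3r -0.038. Leaving out 1 library gave 0 to 7 called genes (0 without named Qk-KO 3, 2 without named Qk-KO 1, 3 without named Qk-KO 2 or named WT 2 and 7 without named Qk-KO 4). It gave -0.12 to 0.14 for Csf1, -0.83 to -0.02 for Il34, 0.0082 to 0.18 for Csf2ra, -0.14 to 0.11 for Csf2rb, -0.59 to 0.11 for Csf2rb2 and -0.031 to 0.14 for Csf3r. The cause was not tested. Deviations from the group means were correlated between same-numbered libraries, with r = 0.05, 0.15, 0.27 and 0.46 for numbers 1 to 4. By these deviations named Qk-KO 2, 3 and 4 each matched the named WT library of the same number best. Named Qk-KO 1 matched named WT 3 best. As number 1 showed no match, the numbers were not taken as pairs in the main fit, and a replicate block was an alternative. The replicate block called 1 gene, and Csf1r kept -0.28 (limma adjusted p = 0.231). DESeq2 was not run for want of counts. Depth limits Il34 most, at 4.22 to 24.0 rough reads a library.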
